A study of Mus musculus with 7 samples.

Results

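Annexin and S100 transcripts, 2 families of calcium-binding proteins that are known to act at damaged or remodelled membranes, were examined in whole liver of mice with and without *Rbpj*. The 10 genes, *Anxa1* to *Anxa6*, *S100a4*, *S100a6*, *S100a10* and *S100a11*, were chosen by name, and every probe that the array's design gives for them was read, which came to 12 probes among the 24548 probes and 10 genes among the 18771 genes tested. The *Rbpj* +/+ group held 4 mice without the *AlfpCre* transgene (arrays Rbpj +/+_991, Rbpj +/+_1024, Rbpj +/+_1155 and Rbpj +/+_1156) and the *Rbpj* -/- group 3 mice with it (arrays Rbpj -/-_2866, Rbpj -/-_N3 and Rbpj -/-_N5). All 7 carried the floxed *Rbpj* allele in both copies, were C57BL/6J, untreated and 4 weeks old, and gave 1 array each. The labels give cholestasis for every *Rbpj* -/- liver and none for the *Rbpj* +/+ livers, so genotype and cholestasis cannot be told apart. *AlfpCre* is driven by albumin and alpha-fetoprotein regulatory sequences and acts in hepatocytes and bile duct cells, while the other cells of the liver keep *Rbpj*.

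Annexins bind negatively charged phospholipids when calcium rises, and are known for membrane repair, vesicle traffic and, outside the cell, for the control of inflammation. Most S100 proteins are small dimers of EF-hand calcium sensors, and several S100 proteins bind an annexin, S100A10 to annexin A2 and S100A11 to annexin A1. In healthy liver the hepatocytes are known to hold little annexin A1 or A2, whereas bile duct epithelium, macrophages and stromal cells hold more. A level in whole liver is the sum over all of its cells, and more cells of a type cannot be told apart from more RNA per cell.

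The 12 probes are 60 bases long, and none of the 55669 other probes of the array shares a run of 20 bases with one of them. Among themselves, the probes of *S100a4* and *S100a6*, nearby genes of the S100 cluster on chromosome 3, have the longest run in common. They are shown with the common run of 11 bases in capitals. Counted from the 5′ end, the run lies at positions 1 to 11 of the *S100a4* probe and 23 to 33 of the *S100a6* probe. Probes were compared with probes only, and whether a probe also binds the transcript of another gene was not tested.
S100a4: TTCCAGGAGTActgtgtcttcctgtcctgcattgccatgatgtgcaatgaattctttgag
S100a6: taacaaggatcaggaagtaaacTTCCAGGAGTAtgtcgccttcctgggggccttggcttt
The *S100a4* probe lies at chr3:90409734-90409793 and the *S100a6* probe at chr3:90418160-90418219, both on the plus strand of mm9, the build of the array's design. Outside the run, which codes for the end of the second EF hand in both proteins, the probes differ in sequence but still share shorter stretches.

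The promoters of the members with the 2 largest increases are shown too, followed by that of *Anxa1*. RefSeq's promoter table (GRCm38.p6) held 8 entries for 7 of the 10 genes, each with the 250 bases before and the 50 after a gene's start, 300 in all. *Anxa3*, *Anxa6* and *S100a10* had no entry. Capitals mark matches, on either strand, to TGANTCA (AP-1), TGGGAA (RBPJ) or CATTCC (TEAD, the partner of YAP), which do not overlap here.
Anxa2, chr9:69453433-69453732, plus strand: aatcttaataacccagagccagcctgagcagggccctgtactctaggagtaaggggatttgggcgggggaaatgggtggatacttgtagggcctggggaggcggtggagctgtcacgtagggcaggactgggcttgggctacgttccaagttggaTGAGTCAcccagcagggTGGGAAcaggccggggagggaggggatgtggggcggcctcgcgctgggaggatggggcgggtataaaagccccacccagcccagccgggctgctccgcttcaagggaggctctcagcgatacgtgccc
S100a11, chr3:93520246-93520545, plus strand: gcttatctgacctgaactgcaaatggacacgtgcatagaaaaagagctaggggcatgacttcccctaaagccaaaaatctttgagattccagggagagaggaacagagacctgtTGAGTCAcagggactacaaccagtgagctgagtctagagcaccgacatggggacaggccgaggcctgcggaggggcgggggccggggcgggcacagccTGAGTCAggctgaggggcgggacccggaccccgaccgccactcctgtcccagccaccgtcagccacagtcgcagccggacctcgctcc
Anxa1, chr19:20390622-20390921, minus strand: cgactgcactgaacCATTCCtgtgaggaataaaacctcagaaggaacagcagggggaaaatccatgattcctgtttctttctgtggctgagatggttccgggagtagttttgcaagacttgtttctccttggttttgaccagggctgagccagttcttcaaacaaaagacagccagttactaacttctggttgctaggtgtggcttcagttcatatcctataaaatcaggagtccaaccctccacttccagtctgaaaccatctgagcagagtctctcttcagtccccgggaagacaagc
Counted from the gene's start, the AP-1 match of *Anxa2* begins at -95 and its RBPJ match at -78. *S100a11* holds AP-1 matches at -136 and -38, and *Anxa1* a TEAD match at -236. An RBPJ match was also found in *S100a4* (-140) and *S100a6* (-74), both on the other strand. In all, AP-1 was matched in 2, RBPJ in 3 and TEAD in 1 of the 7 genes, while 7.81%, 25.6% and 14.7% of the 32851 promoters of the table held these motifs. The matches are letters in a window and say nothing of binding.

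Deletion of *Rbpj* came with higher levels of most of these genes. By limma, 8 of the 10 genes rose and 0 fell (adjusted p below 0.1), where 34.2% of all tested genes were called, 14.6% higher and 19.6% lower. At an adjusted p below 0.05, 6 of the 10 rose, against 10.9% of all genes. *Anxa4* and *S100a10* were not called. Every *Rbpj* -/- array lay above every *Rbpj* +/+ array for 7 of the 10 genes, against 15.4% of all genes. In the middle of the members stood a log2 fold change of 1.32 (median), against -0.13 for all tested genes. By probe, 10 of 12 rose (14.3% of all probes) and 9 of 12 had groups without overlap (14.9% of all probes). The members were listed with earlier results of these data known, so their counts are a description and not independent evidence of a direction.

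**Figure D1:**
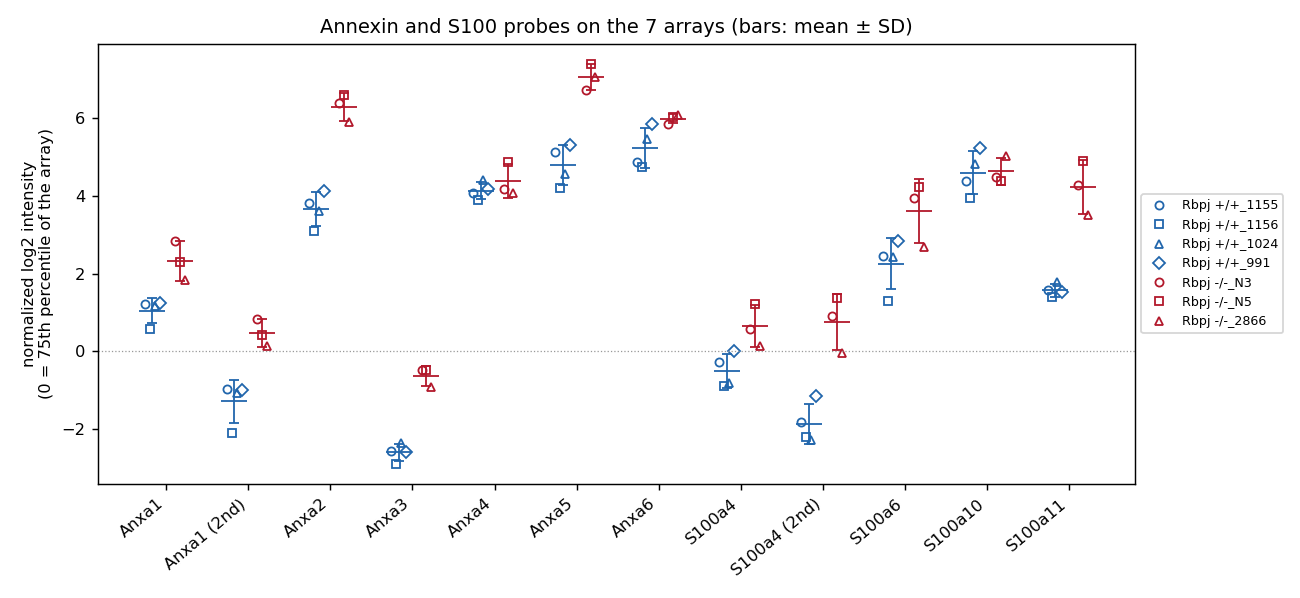
Normalized log2 intensity (0 is the 75th percentile of an array) of the 12 probes, with a symbol for each array, *Rbpj* +/+ in blue and *Rbpj* -/- in red, and bars for the mean ± SD. The red symbols lie above all blue ones for 9 of the 12 probes and mix with them for *Anxa4*, *S100a6* and *S100a10*.

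*Anxa2* and *S100a11* showed the largest increases of the set. Annexin A2 links membranes to the actin cytoskeleton and binds plasminogen at the cell surface. Its normalized log2 intensity was 3.81, 3.10, 3.60 and 4.13 on arrays Rbpj +/+_1155, _1156, _1024 and _991, and 6.38, 6.60 and 5.90 on arrays Rbpj -/-_N3, _N5 and _2866, the order in which all values are given below. The groups were far apart, and the animals of each group lay close to each other. The means were 3.66 ± 0.43 (SD, n = 4) and 6.29 ± 0.36 (SD, n = 3), a log2 fold change of 2.63 (SE 0.28, 95% interval 1.99 to 3.27, adjusted p = 0.000906 from limma), or 6.20-fold. It held position 249 among the 18771 tested genes ordered from the largest increase. The probe lies at chr9:69339532-69339591 (mm9, plus strand).

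S100A11, which binds annexin A1 and takes part in membrane repair, changed by about as much. The *S100a11* values were 1.57, 1.40, 1.79 and 1.52 in *Rbpj* +/+ and 4.27, 4.90 and 3.50 in *Rbpj* -/- liver. The 4 control animals lay close together and the 3 deleted ones were spread, with array Rbpj -/-_2866 lowest. The means were 1.57 ± 0.16 (SD, n = 4) and 4.22 ± 0.70 (SD, n = 3), which is a log2 fold change of 2.65 (SE 0.31, 95% interval 1.95 to 3.35, adjusted p = 0.00128 from limma), or 6.28-fold, position 240 of all genes. The array's design places this probe, the only one of the gene, at chr18:16433145-16433204 (mm9, minus strand), whereas RefSeq gives chromosome 3 for the gene. The name *S100a11* is the array's own, and which of these places the signal comes from was not tested.

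Annexin A5, known as the label for exposed phosphatidylserine on dying cells, was the third gene with a log2 fold change of at least 2, a size that 2.66% of all tested genes reached. *Anxa5* measured 5.12, 4.21, 4.55 and 5.32 in *Rbpj* +/+ and 6.72, 7.39 and 7.05 in *Rbpj* -/- liver, with no overlap. It rose by 2.26 log2 units (SE 0.30, 95% interval 1.57 to 2.94, adjusted p = 0.00214 from limma), 4.78-fold. The probe lies at chr3:36348065-36348124 (mm9, minus strand).

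Annexin A3, which neutrophils also carry in their granules, rose from a low signal. Values of *Anxa3* were -2.55, -2.88, -2.36 and -2.60 in *Rbpj* +/+ and -0.48, -0.47 and -0.93 in *Rbpj* -/- liver, well apart and with little spread in either group. The log2 fold change was 1.97 (SE 0.21, 95% interval 1.49 to 2.45, adjusted p = 0.000898 from limma), 3.92-fold, at chr5:97253925-97253984 (mm9, plus strand). As the scanner gave them, the intensities were 11.2 to 17.5 in *Rbpj* +/+ and 62.1 to 102 in *Rbpj* -/- liver, all well above background. At such low signals the size rested on the background correction, and with normexp and its offset of 50 the log2 fold change was 0.45 (adjusted p = 0.0406, in a range of 0.000284 to 0.0406 over all settings).

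Annexin A1, a ligand of formyl peptide receptors that limits the entry of neutrophils, rose on both of its probes. On the brighter *Anxa1* probe (chr19:20447938-20447997, mm9, minus strand) the values were 1.21, 0.58, 1.17 and 1.23 in *Rbpj* +/+ and 2.85, 2.30 and 1.83 in *Rbpj* -/- liver. The groups did not overlap, and array Rbpj +/+_1156 stood below the other 3 controls. The log2 fold change was 1.28 (SE 0.28, 95% interval 0.64 to 1.92, adjusted p = 0.0143 from limma), 2.43-fold. Without the filter on dim probes, which brings many dim probes into the limma fit and the adjustment, its adjusted p was 0.120, while the other probe was still called (adjusted p = 0.0805). The other probe, chr19:20449722-20449781, read -0.98, -2.11, -1.07 and -0.997 against 0.84, 0.42 and 0.13, a log2 fold change of 1.75 (SE 0.32, adjusted p = 0.00720 from limma), 3.36-fold, and 0.79 with normexp (adjusted p = 0.0114). The change on the brighter probe minus that on the other was -0.47 log2 units (SE 0.16).

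Annexin A6, a large annexin of membranes and endosomes, was at the edge of detection of a change. *Anxa6* was 4.87, 4.74, 5.46 and 5.85 in *Rbpj* +/+ and 5.86, 6.04 and 6.07 in *Rbpj* -/- liver, where the lowest *Rbpj* -/- array and the highest *Rbpj* +/+ array nearly touched. The log2 fold change was 0.76 (SE 0.28, 95% interval 0.12 to 1.40, adjusted p = 0.0837 from limma), 1.69-fold, at chr11:54792616-54792675 (mm9, minus strand). It no longer passed when any animal but Rbpj +/+_991 was left out, with adjusted p between 0.0400 and 0.203 over the 7 fits.

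*Anxa4*, coding for an annexin of secretory and biliary epithelium, gave no call. It measured 4.06, 3.88, 4.42 and 4.17 in *Rbpj* +/+ and 4.17, 4.88 and 4.09 in *Rbpj* -/- liver, with the groups mixed. The log2 difference was 0.25 (SE 0.25, adjusted p = 0.494 from limma), and its 95% interval of -0.31 to 0.81 includes no change as well as a modest increase. The probe lies at chr6:86686883-86686942 (mm9, minus strand).

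Among the S100 genes, the *S100a4* and *S100a6* probes shown above both rose, but by less than *S100a11*. S100A4, known as fibroblast-specific protein and also made by macrophages, binds non-muscle myosin. On its brighter probe *S100a4* was -0.27, -0.89, -0.82 and 0.00 in *Rbpj* +/+ and 0.57, 1.21 and 0.15 in *Rbpj* -/- liver. Rbpj -/-_2866 came close to the highest control, without overlap. The log2 fold change was 1.14 (SE 0.32, 95% interval 0.42 to 1.86, adjusted p = 0.0335 from limma), 2.20-fold, and without Rbpj -/-_N5 the adjusted p was 0.127 on this probe and 0.0158 on the second. The second *S100a4* probe, chr3:90409908-90409967, lies further towards the 3′ end and read -1.82, -2.19, -2.28 and -1.15 against 0.91, 1.37 and -0.04. There the groups were wide apart, and the log2 fold change was 2.61 (SE 0.38, adjusted p = 0.00302 from limma), 6.10-fold. With normexp it was 1.39 on the second and 0.65 on the brighter probe, both still called (adjusted p = 0.00305 and 0.0350). The change on the brighter probe minus that on the second was -1.47 log2 units (SE 0.17), and on every *Rbpj* -/- array the value of the brighter minus that of the second probe was below that of every *Rbpj* +/+ array. Both probes carry RefSeq's accession for one *S100a4* transcript, and which of them follows the gene more closely was not tested.

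S100A6, or calcyclin, is known for its presence in proliferating cells and in bile ducts. *S100a6* was 2.46, 1.30, 2.42 and 2.85 in *Rbpj* +/+ and 3.94, 4.24 and 2.69 in *Rbpj* -/- liver, so that array Rbpj -/-_2866 fell below Rbpj +/+_991. With a log2 fold change of 1.36 (SE 0.45, 95% interval 0.35 to 2.38, adjusted p = 0.0576 from limma), 2.57-fold, the increase carried the widest error of the set. The call was lost without Rbpj +/+_1024 (adjusted p = 0.108), Rbpj -/-_N3 (0.162) or Rbpj -/-_N5 (0.199).

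*S100a10* codes for the partner with which annexin A2 forms a tetramer, and it was not called where *Anxa2* rose. Its values were 4.38, 3.95, 4.83 and 5.22 in *Rbpj* +/+ and 4.48, 4.38 and 5.02 in *Rbpj* -/- liver, fully mixed. The log2 difference was 0.03 (SE 0.32, adjusted p = 0.952 from limma), with a 95% interval of -0.69 to 0.75, at chr3:93368437-93368496 (mm9, plus strand). Within an array the change of *Anxa2* exceeded that of *S100a10* by 2.60 log2 units (SE 0.38), and the value of *Anxa2* minus that of *S100a10*, which was negative on all 4 *Rbpj* +/+ arrays, was positive on all 3 *Rbpj* -/- arrays. This pair was picked after the values were seen and is therefore given without a test.

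The other members of both families were mixed. Of the 6 other annexins 5 were tested and 2 rose, *Anxa9* by 0.47 log2 units (SE 0.18, adjusted p = 0.0873) and *Anxa13*, an annexin of epithelia, by 0.75 (SE 0.24, adjusted p = 0.0494), with a median of -0.06 over the 5. *Anxa7* (-0.06), *Anxa8* (-0.53) and *Anxa11* (-0.07) were not called on the probes that stand for them, and *Anxa10* was too dim to be tested. Of *Anxa7*'s 2 probes, 1 passed the test.

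Of 12 other S100 genes, 7 were tested, of which 3 rose and 1 fell, with a median of 0.30. *S100a8* and *S100a9*, whose products form calprotectin in neutrophils and monocytes, increased together. *S100a8* was 2.22, 0.08, -0.54 and 1.61 in *Rbpj* +/+ and 3.98, 3.02 and 3.39 in *Rbpj* -/- liver, so that it rose by 2.62 log2 units (SE 0.62, adjusted p = 0.0186). *S100a9* followed with 2.46 (SE 0.62, adjusted p = 0.0232). For both, the control animals were widely spread, with Rbpj +/+_1024 lowest and Rbpj +/+_1155 highest, and the groups did not overlap. *S100g*, coding for the vitamin D-dependent calcium binder calbindin-D9k, was well above background on 0 of 4 *Rbpj* +/+ and 3 of 3 *Rbpj* -/- arrays, with means of -3.74 and 1.46. It was at least 26.9-fold higher, set against the lowest signals that were above background on the control arrays (adjusted p = 0.000329), and both of its probes were called. The probe that stands for *S100g* entered the test through the *Rbpj* -/- arrays alone. Its call is therefore a description and not separate evidence of a rise. *S100a13* fell by 0.82 on the log2 scale (SE 0.20, adjusted p = 0.0218). *S100a1* (-0.54), *S100a5* (-0.33) and *S100a16* (0.30) were not called.

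**Figure D2:**
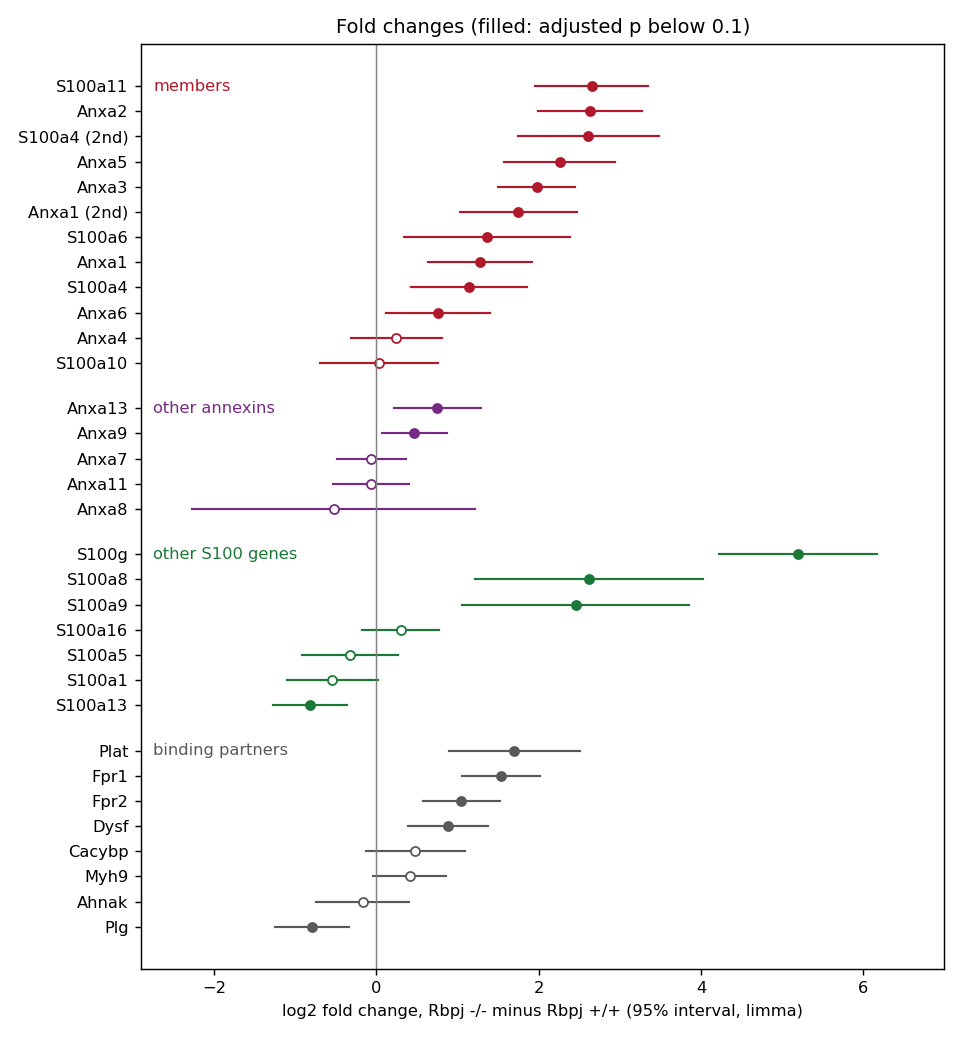
Log2 fold change, *Rbpj* -/- minus *Rbpj* +/+, with the 95% interval from limma, for the members, the other annexin and S100 genes and their binding partners. Filled symbols have an adjusted p below 0.1, which 10 of the 12 member probes reach. *S100g* is drawn at its limma estimate although no control array was above background, and the text gives a lower bound for it.

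Along chromosome 3, where the array's design places 12 of these S100 genes, genes that rose stood beside genes that fell or were not called. *S100a13* fell, *S100a5* between *S100a4* and *S100a6* was not called while both of these rose, and *S100a10*, the last in the order, was not called. *S100a11*, the S100 member with the largest increase, is missing from this order. RefSeq places that gene on chromosome 3 as well, but the design places its probe elsewhere.

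**Figure D3:**
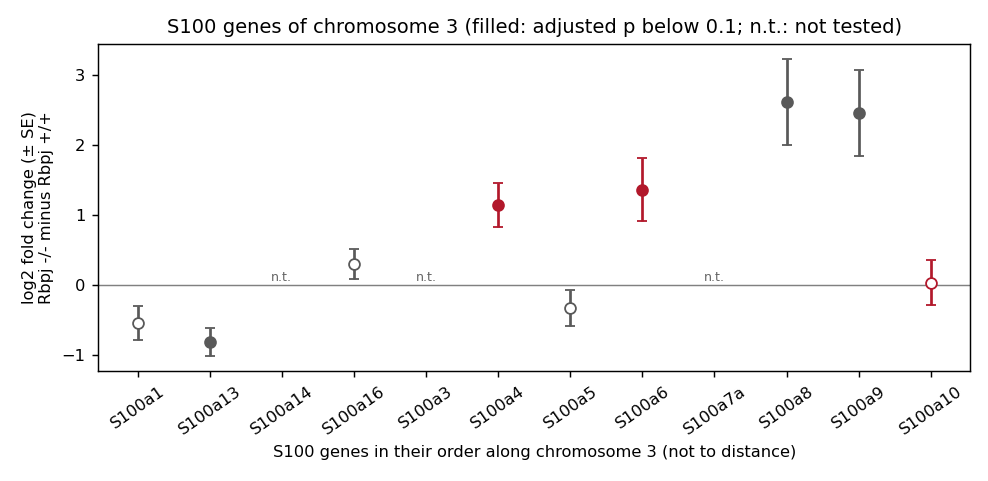
Log2 fold change ± SE of the S100 genes in their order along chromosome 3, equally spaced, with members in red and filled symbols for an adjusted p below 0.1. Called increases (*S100a4*, *S100a6*, *S100a8*, *S100a9*) stand beside genes that fell, were not called or were not tested (n.t.). *S100a11* is not shown, because the design places its probe on another chromosome.

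Of the 9 binding partners and receptors 8 were tested, 4 rose and 1 fell, with a median log2 fold change of 0.68. Both receptors of annexin A1 rose, *Fpr1* from 0.35 ± 0.28 (SD, n = 4) to 1.89 ± 0.18 (SD, n = 3), a log2 fold change of 1.54 (adjusted p = 0.00239), and *Fpr2* by 1.05 (adjusted p = 0.00971). These receptors are known from neutrophils and macrophages. *Plat*, the tissue plasminogen activator that annexin A2 and S100A10 bind, increased by 1.70 (adjusted p = 0.0116), but only 1 of the 4 control arrays was well above background. Plasminogen itself, made by hepatocytes, went the other way, with *Plg* lower by a log2 change of -0.80 (SE 0.20, adjusted p = 0.0243). *Dysf*, coding for the membrane repair protein dysferlin, rose by 0.88 (adjusted p = 0.0226). *Myh9* (0.41), which S100A4 binds, and *Cacybp* (0.48), which S100A6 binds, were not called, nor was *Ahnak* (-0.17) on its brightest probe, although 2 of its 3 tested probes were. *Ager*, the receptor of several S100 proteins, was too dim to be tested.

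The 7 animals ranked alike over many members. Rbpj +/+_1156 was the lowest control for 10 of the 10 genes, on average 0.64 log2 units below the other controls, where the median over all tested genes was 0.24 below. After quantile normalization it was the lowest for 6 of 10, by 0.56 against 0.12. Rbpj +/+_991 was the highest control for 7 genes. In the *Rbpj* -/- group, Rbpj -/-_N5 was highest for 7 genes and Rbpj -/-_2866 lowest for 7. Rbpj +/+_1156 and Rbpj -/-_N3 were also the arrays on which dim probes were brighter, with 61.9% and 64.9% of all probes above background and 41.1% to 47.7% on the other 5. Without both of them 5 members rose (adjusted p below 0.1), the median log2 fold change of the members was 0.96, and *Anxa6*, *S100a6* and the brighter probe of *S100a4* were no longer called, while the second *S100a4* probe was (log2 fold change 2.41, adjusted p = 0.0338). *Anxa1*, *Anxa2*, *Anxa3*, *Anxa5* and *S100a11* were still higher.

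**Figure D4:**
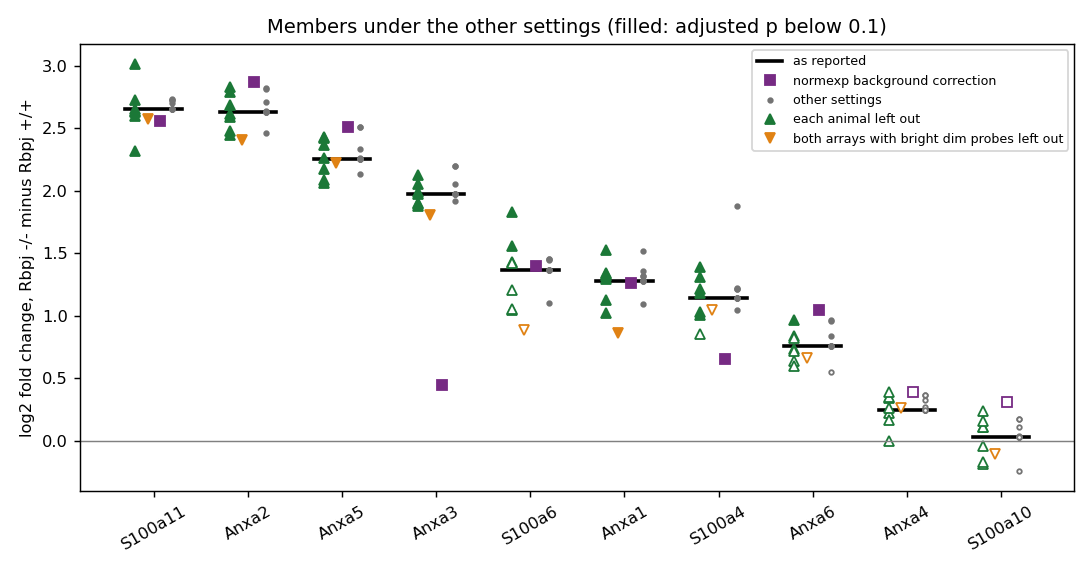
Log2 fold change of each member as reported (bar) and under each other setting, with each animal left out as triangles pointing up. Filled symbols have an adjusted p below 0.1. *S100a11*, *Anxa2*, *Anxa5* and *Anxa3* are filled throughout, whereas *S100a6*, *S100a4* and *Anxa6* hold open symbols.

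Markers of other cell types moved as well. Summed over the 10 members, the level relative to the 75th percentile ranged from 91.3 to 184 on the *Rbpj* +/+ and from 331 to 437 on the *Rbpj* -/- arrays. Such sums add intensities that are not on the log scale, so the brightest genes of a list weigh most. Among 8 macrophage markers 6 rose and 1 fell, with a summed level of 79.7 to 99.3 against 259 to 378. *Cd14* (4.44), *Marco* (2.92) and *Lyz2* (2.85) had the largest log2 fold changes of that list, and *Itgam* (-1.54) was the one that fell. Of the 2 tested probes of *Itgam*, only 1 was called. Stellate cell and fibroblast markers rose for 7 of 9, from 135 to 210 to a range of 267 to 337. The brightest of them, *Dcn* (0.49), was not called. The cholangiocyte list gave 3 increases of 5 tested (3.30 to 4.29 against 6.51 to 13.1), namely *Sox9*, *Spp1* and *Cldn7*, whereas *Krt19* (0.25) and *Krt7* (-0.45) were not called and *Epcam* was too dim to be tested.

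Of 7 tested neutrophil markers 2 rose, which were *S100a8* and *S100a9* themselves, while *Elane* fell and *Mpo*, *Ngp*, *Ltf* and *Camp* were not called. The summed level was 6.25 to 25.2 against 32.5 to 68.7. *S100a8* and *S100a9* made up most of it on the *Rbpj* -/- arrays, so it mainly repeats these genes. Hepatocyte markers fell for 4 of 7, from 2471 to 3350 in *Rbpj* +/+ to 1575 to 1926 in *Rbpj* -/- liver. Of the 6 endothelial markers 2 rose and 1 fell, *Kdr*, with 1 of its 2 tested probes called. Of 4 tested lymphocyte markers 1 rose and 3 fell, of 3 erythroid markers 1 fell, of 2 tested mesothelial markers 0 were called, and 5 of 5 proliferation genes rose. The part of these cell types in the increase of the annexin and S100 genes was not tested. *Rbpj* itself fell by 1.13 on the log2 scale (SE 0.24, adjusted p = 0.0115).

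**Figure D5:**
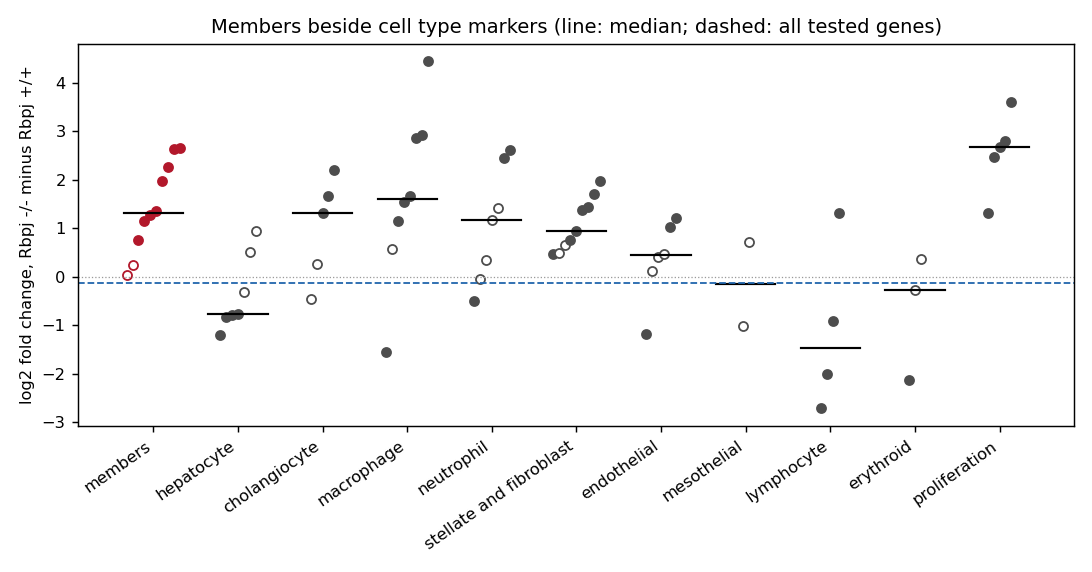
Log2 fold change of single genes, *Rbpj* -/- minus *Rbpj* +/+, for the members (red) and lists of cell type markers (grey), with a line at each median and a dashed line at the median of all tested genes (-0.13). Filled symbols have an adjusted p below 0.1, and beside the members (median 1.32) called increases are seen in most genes of the macrophage, stellate and proliferation lists. In the cholangiocyte list (median 1.32) they are seen in 3 of the 5 tested genes, but not in *Krt19* or *Krt7*.

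Genes whose pattern over the 7 arrays was most like that of the members were sought among 18744 tested genes with 1 name, by the root mean square difference of log2 values centred on their mean. Nearest to the mean profile of the 10 members was *Krt8*, a keratin of simple epithelia (0.0877 log2 units), followed by *Vat1* (0.107), *Gata6* (0.109), *Rrm1* (0.120) and *Pea15a* (0.128). For single members these were *Ero1l* for *Anxa1* (0.115), *Tgfbr2* for *Anxa3* (0.121), *Exosc6* for *Anxa4* (0.0484), *Bcl2a1d* for *Anxa5* (0.226), *Adssl1* for *Anxa6* (0.121), *Fam187b* for *S100a4* (0.110), *Btg3* for *S100a6* (0.195), *Tubb4b* for *S100a10* (0.140) and *Nid1* for *S100a11* (0.143), and for *Anxa2* a probe without a gene name (0.134). *Anxa2* and *Anxa5* were each other's nearest member (0.301), and *S100a11* was nearest to *Anxa2* among the members (0.331). Many other genes lay closer than these. Among all genes, the nearest member stood at position 31 for *Anxa2*, 16 for *Anxa5*, 23 for *S100a11* and 43 for *S100a6*. For the other members it stood at positions from 344 (*Anxa3*) to 7659 (*Anxa4*). With 7 arrays in 2 groups, the size of the change alone brings many genes close.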

How the data were processed

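RNA of whole liver from 4 *Rbpj* +/+ and 3 *Rbpj* -/- mice was hybridised to 1-colour Agilent 8x60K arrays, which the authors read with Feature Extraction 10.7.3.1 (per the submitters' processing notes). The deposited intensity values are background-subtracted signals of single spots, without normalization between arrays, and each array's mean and background intensities were used for one alternative. The log2 values of the series matrix, deposited by the authors, served as another. Control probes and spots marked as outliers were left out (146 probe values), spots of a probe were averaged as log2, and each array's 75th percentile was subtracted. No spot was saturated. Probes detected (positive, significant and well above background) on every array of 1 genotype or both were tested with limma 3.58.1 (R 4.3.3), with Benjamini-Hochberg adjustment over 24548 probes and a threshold of 0.1. limma stood in for the shrinkage t statistic of the methods. A gene was read by its brightest tested probe. The steps were tested on simulated data.

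All arrays lay on 1 slide, *Rbpj* +/+ in row 1 and *Rbpj* -/- in row 2, so row and genotype cannot be told apart. The number of arrays limits the precision. A lower bound of a fold sets the bright group's mean against, per array, the higher of the probe's own signal and the lowest signal well above background. Members, gene lists and tests were chosen with earlier results of these data known, and the motifs, probe pairs and probe runs after the values were seen. All members, their tested family genes and partners, the marker genes and the nearest profiles were named by rule. The result for 1 marker gene is not reported here. Alternatives were normexp, quantile normalization, another base for the percentile, no filter or a stricter one on dim probes, outlier spots kept, the series matrix, limma-trend, array weights, the mean over probes, a threshold of 0.05 and each animal left out. Python 3.11.15, pandas 2.3.3 and matplotlib 3.10.9 made tables and figures.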

Additional observations from a re-analysis of the deposited data

Results flagged for a closer look

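*Anxa1* on array Rbpj +/+_1156 stood apart from the other 3 *Rbpj* +/+ animals on both of its probes. The gap to the nearest control made up 0.903 of the group's whole range on the brighter probe and 0.922 on the other, above the 95% critical value of Dixon's test for 4 samples. Chance flags about 1 in 20 groups, 12 probes were examined, and both probes were read from the same RNA. Without this animal the log2 fold change of *Anxa1* was 1.12 (adjusted p = 0.0253), and it was called.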

How the results depend on the processing

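*Anxa2*, *Anxa3*, *Anxa5* and *S100a11* were called under all 18 alternatives, with log2 fold changes of 2.40 to 2.87, 0.45 to 2.20, 2.06 to 2.51 and 2.31 to 3.01. Of the 10 members, 4 were called without the filter on dim probes, 5 to 8 with 1 animal left out (5 without Rbpj -/-_N5), 5 without both arrays of bright dim probes (an alternative chosen after seeing the data), and 6 to 8 otherwise. Of all tested genes, 2.71%, 9.69% to 14.6%, 11.8% and 10.9% to 18.2% were called higher in these cases, in that order. The members' median was 1.69 when a gene's probes were averaged, 0.96 without both arrays, and 1.08 to 1.68 with 1 animal left out. Without the filter, *Anxa1* (1.28, adjusted p = 0.120), *Anxa6* (0.76, 0.331), *S100a4* (1.14, 0.195) and *S100a6* (1.36, 0.263) did not pass on their brightest probes, while the second probes of *Anxa1* (1.75, 0.0805) and *S100a4* (2.61, 0.0488) did. In that setting 35715 genes instead of 18771 entered both the limma fit and the adjustment, and the part of each in the lost calls was not tested. Without both arrays the values were 0.66 for *Anxa6*, 1.05 for the brighter *S100a4* probe (2.41 and called for the second), 0.88 for *S100a6* and -0.11 for *S100a10*, and with array weights 0.55 for *Anxa6* and -0.24 for *S100a10*; the cause was not tested. With 1 animal left out, *Anxa6* ranged from 0.60 to 0.96, the brighter *S100a4* probe from 0.86 to 1.39, *S100a6* from 1.05 to 1.83, *Anxa4* from -0.0049 (without Rbpj -/-_N5) to 0.39, and *S100a10* from -0.18 to 0.24, the last 2 never called. Normexp gave 0.45 for *Anxa3*, 0.65 and 1.39 for the *S100a4* probes and 0.79 for the second *Anxa1* probe, and the mean over probes 1.87 for *S100a4*, all called. Over all genes 2741 rose and 3671 fell, while the series matrix, on another scaling, gave 3144 and 2587, and 968 and 674 passed without the filter. No paired analysis was possible because the labels of the groups share no replicate numbers, and slide could not be a block since all arrays lay on 1 slide. Low signals limit *Anxa3* and the second *Anxa1* and *S100a4* probes.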
